A study of Mus musculus with 8 samples.

Results

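The 10 genes described here, H19, Igf2, Cdkn1c, Grb10, Plagl1, Mest, Peg3, Meg3, Rian and Dlk1, are imprinted genes linked to fetal growth. They were picked by name and make up 10 of the 23393 gene symbols in the deposited table, and all 10 passed the filter on low values. The list was drawn up with values of these libraries known, in particular the gap in H19 and Igf2 between the forestomach libraries, so every difference of these genes that involves the forestomach is given as a description with no test. Poly(A) RNA from epithelium of the mouse embryonic gut was sequenced in 8 libraries labelled E16.5: 2 each from forestomach, hindstomach, proximal small intestine (called intestine below) and colon.

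All groups carry the same labels for stage and were not treated. The labels' protocols name ShhCre;R26YFP/+ embryos as the source of E16.5 gut epithelium, in a passage on chromatin accessibility samples, and give no other genotype for the RNA samples. In these embryos Cre from the Shh locus, active in gut epithelium, switches on a yellow fluorescent reporter. No sort on the reporter is described for the RNA samples. Forestomach epithelium was peeled from the mesenchyme after Dispase, whereas hindstomach was shaken loose in 10 mM EDTA, and intestine and colon in 5 mM EDTA. The isolation method therefore coincides with tissue for the forestomach, and the EDTA concentration for the hindstomach. Whether the replicates are separate embryos is not stated, and the p-values below therefore reflect the spread among these libraries alone, which may be technical.

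Imprinted genes are transcribed mainly from the allele inherited from 1 parent, set by DNA methylation laid down in the egg or sperm, and many of them act on growth before birth. Igf2, Plagl1, Mest, Peg3 and Dlk1 are transcribed from the paternal allele, and H19, Cdkn1c, Meg3, Rian and, in most tissues, Grb10 from the maternal one. Paternally expressed genes such as Igf2 tend to favour growth, and maternally expressed genes such as H19, Cdkn1c and Grb10 tend to restrain it. Several of them are abundant in fetal tissue and fall after birth. FPKM (fragments scaled to transcript length and library size) sums both alleles, so imprinting itself was not measured.

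Of the 10 genes, 5 lie in an imprinted domain with another of the 10. Coordinates are from GENCODE M21 on GRCm38. On chromosome 7, H19, a long non-coding RNA, spans 142575529 to 142578143 on the minus strand. Igf2, which encodes insulin-like growth factor 2, spans 142650766 to 142666816 on the same strand, 72.6 kb away, and is known to share enhancers with H19. Cdkn1c, which encodes the CDK inhibitor p57, starts 792 kb beyond Igf2 and belongs to a separate imprinted domain. On the plus strand of chromosome 12, Dlk1, a membrane protein related to Notch ligands, ends 77.7 kb before the non-coding RNA Meg3 (109541001 to 109571726), which ends 32.2 kb before the non-coding RNA Rian. Rian hosts 17 annotated small RNA genes. Some members overlap other annotated genes, among them Igf2 with the antisense Igf2os and Mest with the antisense Copg2, and with no strand setting given in the sources used here, such genes may share reads.

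Of the 10 genes, 5 host microRNAs in the RefSeq table (GRCm38.p6), with 10 mature sequences and 10 different seeds. In H19 and Meg3 the hairpin lies in an exon of at least 1 annotated transcript, out of 7 for H19 and 11 for Meg3. Those in Igf2, Mest and Rian lie in introns. FPKM is given per gene, so whether transcripts holding the hairpin were measured cannot be told. The 4 exonic sequences are shown because the abundance of H19 and the tissue pattern of Meg3 are the results below; capitals mark the seed, bases 2 to 8. The mature microRNAs themselves were not measured.
miR-675-5p in H19: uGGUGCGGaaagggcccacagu
miR-675-3p in H19: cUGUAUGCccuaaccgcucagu
miR-770-5p in Meg3: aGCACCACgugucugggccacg
miR-770-3p in Meg3: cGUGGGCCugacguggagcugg

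Promoter sequences (250 bases before a RefSeq start, GRCm38.p6) were found for 8 of the 10 genes, in 15 windows. H19 and Cdkn1c had no entry. Both strands were searched for TGACGTCA (the cyclic AMP response element), TATAAA, GGGGCCCC and CCAAT. The Meg3 window at chr12:109540746-109540995, plus strand, is shown because Meg3 is the member called in 2 of the comparisons below and because this window holds both TGACGTCA and TATAAA. Capitals mark TGACGTCA, 57 bases before the start, and 2 overlapping TATAAA matches, 1 on each strand, at 29 and 25 bases before it.
Meg3 promoter: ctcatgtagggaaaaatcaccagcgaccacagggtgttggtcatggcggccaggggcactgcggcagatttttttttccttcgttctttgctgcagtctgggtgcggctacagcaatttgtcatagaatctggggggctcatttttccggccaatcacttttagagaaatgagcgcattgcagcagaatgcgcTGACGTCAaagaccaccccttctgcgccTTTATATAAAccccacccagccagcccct
The Peg3 window, on the minus strand of chromosome 7, also holds TGACGTCA, 178 bases before its start, and the short stretch chr7:6730580-6730607 around it is shown with the motif in capitals.
Peg3 upstream stretch: ctgactccgtTGACGTCAactccgtgcc
TGACGTCA occurred in 1.55% of all 32851 promoters of this length, and TATAAA in 12.4%. In the members' 15 windows TGACGTCA occurred in 2 and TATAAA in 1. GGGGCCCC was found in 1 (Peg3), against 0.889% of all promoters, and CCAAT in 3 (1 start of Igf2, Peg3 and Meg3), against 33.8%. These matches describe letters in the sequence and were not tested for binding.

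No absolute depth can be read from FPKM. The libraries' summed FPKM ran from 328490 to 545227. In the library labelled forestomach replicate 1, 52.5% of summed FPKM fell on the 10 top genes, against 6.27% to 17.4% in the other 7 libraries. Its label was only partly borne out by markers: 12 gastric glandular genes summed to 168122 FPKM and 11 squamous genes to 1882, while forestomach replicate 2 showed the reverse, 2541 and 50989. The 20 mesenchyme and smooth muscle genes summed to 4661 FPKM in forestomach replicate 1 and 99.8 in replicate 2. Both forestomach libraries are therefore shown separately. Its low cell cycle genes and Igf2bp3 (values below) also set it apart from the other libraries labelled E16.5, so stage and tissue of this library rest on its label alone. The 10 gut epithelium markers summed to 1640 to 4431 FPKM over the libraries, largely from keratins. Their claudins were low in forestomach replicate 1, with Cldn7 at 2.21 FPKM against 33.9 in replicate 2 and 173 to 326 in the other 6. The 10 intestinal markers summed to 18925 and 27764 FPKM in intestine, 14327 and 4553 in colon, and 3554 and 4072 in hindstomach. Fabp1 was at 1486 and 1410 FPKM in hindstomach and at 4773 and 1502 in colon. The 2 colon libraries thus differed in these markers, and replicate 2 was near the hindstomach sums. The part of this intestinal signal in the comparisons with hindstomach or colon was not tested.

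H19 was among the most abundant transcripts of 7 of the 8 libraries. Its FPKM was 6529 and 4738 in hindstomach replicates 1 and 2, 9134 and 9609 in intestine, 6496 and 4129 in colon, and 10.1 and 4137 in forestomach. By abundance it ranked 1 or 2 in each of the 6 libraries outside the forestomach. It ranked 8 in forestomach replicate 2 and 4272 in the library labelled forestomach replicate 1. The 10 genes together made up 1.23% to 3.13% of summed FPKM in those 7 libraries, most of it from H19 (1.09% to 2.73%), and 0.00790% in forestomach replicate 1. In bulk RNA, fewer cells of a type and less RNA per cell cannot be told apart.

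Igf2, the growth factor that signals through the IGF1 and insulin receptors, was lower than H19 in every library but followed it. Its FPKM was 594 and 483 in hindstomach, 864 and 844 in intestine, 664 and 511 in colon, and 1.15 and 348 in forestomach. Both intestinal libraries stood above all others for H19 and for Igf2. The ratio of H19 to Igf2 FPKM stayed between 8.08 and 11.9 in all 8 libraries, a range of 1.47-fold, while H19 itself ranged 956-fold and Igf2 749-fold. In forestomach replicate 1, with both genes low, the ratio was 8.71, and in replicate 2 it was 11.9. Reads may be shared between Igf2 and its overlapping antisense gene, so the ratio depends on how the authors' counting assigned them.

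**Figure D1:**
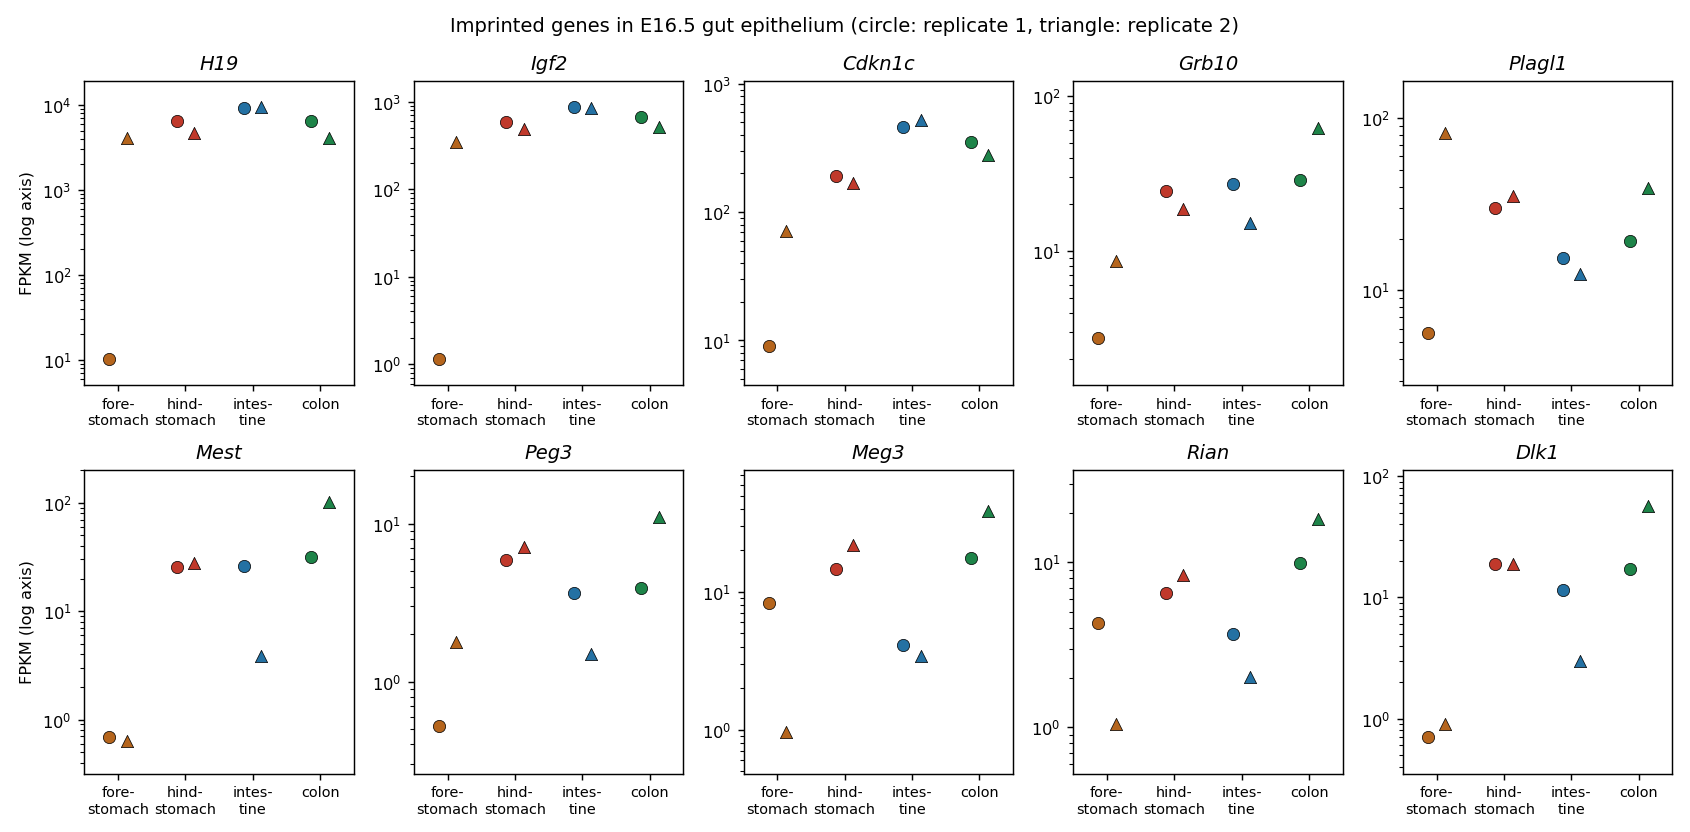
FPKM of the 10 genes on log axes in each of the 8 libraries (circles replicate 1, triangles replicate 2), with a separate axis range for each gene. H19, Igf2 and Cdkn1c are highest in the intestine, Grb10, Mest, Peg3, Meg3, Rian and Dlk1 in colon replicate 2, and Plagl1 in forestomach replicate 2.

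**Figure D2:**
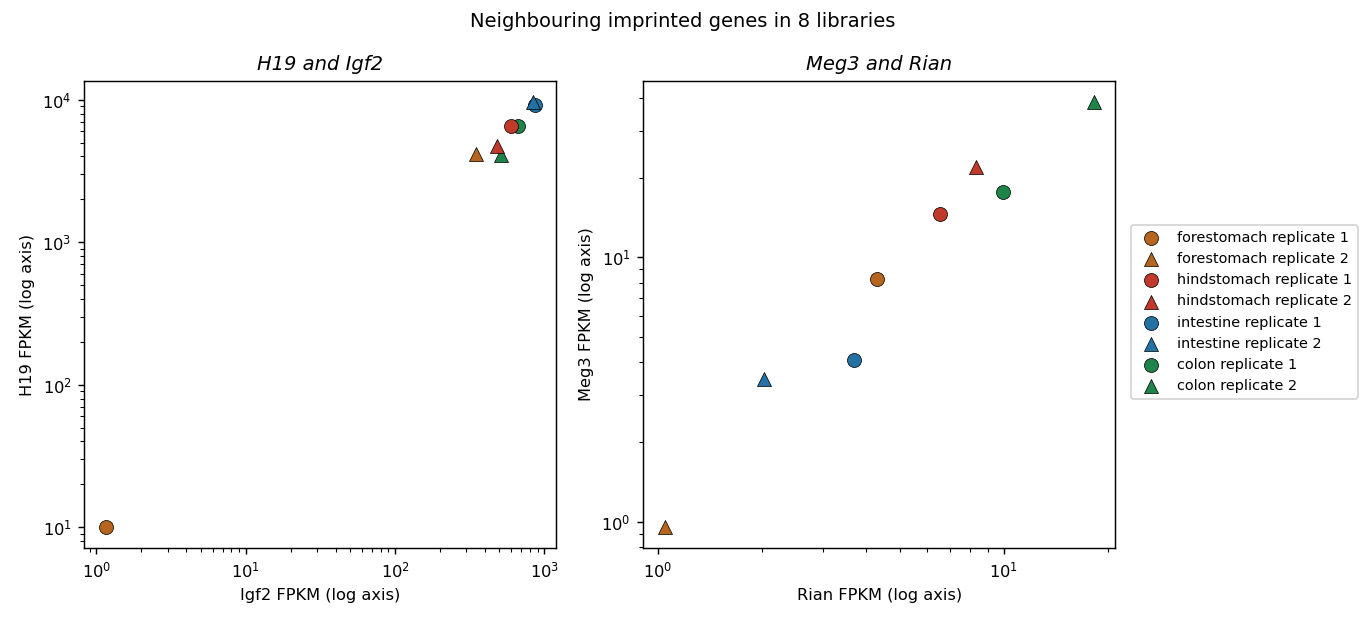
H19 against Igf2 and Meg3 against Rian, FPKM on log axes, 1 point per library. The H19 to Igf2 ratio lies between 8.08 and 11.9 in all 8 libraries, forestomach replicate 1 included at the lower left, and the Meg3 to Rian ratio between 0.911 and 2.64.

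Among the growth restraining genes, Cdkn1c had the clearest order of tissues. Its FPKM was 191 and 168 in hindstomach, 461 and 525 in intestine, 352 and 279 in colon, and 8.99 and 71.8 in forestomach. The 3 tissues outside the forestomach did not overlap, with intestine highest and hindstomach lowest, and both forestomach libraries lay below all of them. Grb10, an adaptor that binds and dampens the insulin and IGF1 receptors, stood at 24.5 and 18.6 FPKM in hindstomach, 26.9 and 15.2 in intestine, 28.8 and 62.5 in colon, and 2.73 and 8.57 in forestomach. Its colon libraries lay above the rest, and hindstomach and intestine overlapped.

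Plagl1, a zinc finger transcription factor known to regulate other imprinted genes, had its highest value in the forestomach. Its FPKM was 30.2 and 35.3 in hindstomach, 15.4 and 12.5 in intestine, 19.4 and 39.5 in colon, and 5.65 and 82.1 in forestomach. It is the member for which forestomach replicate 2 exceeded every other library. Hindstomach and colon overlapped and both lay above intestine. Peg3, another zinc finger protein, was the least abundant protein-coding member outside the forestomach, at 5.89 and 7.14 FPKM in hindstomach, 3.63 and 1.50 in intestine, 3.90 and 11.0 in colon, and 0.522 and 1.78 in forestomach. Its 2 intestinal libraries lay below those of hindstomach and colon, which overlapped.

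Mest, a putative hydrolase whose name stands for mesoderm-specific transcript, was at 25.3 and 27.8 FPKM in hindstomach, 26.2 and 3.89 in intestine, 31.9 and 101 in colon, and 0.684 and 0.632 in forestomach. It is 1 of 2 members under 1 FPKM in both forestomach libraries. The other is Dlk1, at 18.99 and 18.7 FPKM in hindstomach, 11.6 and 3.01 in intestine, 17.3 and 56.6 in colon, and 0.701 and 0.903 in forestomach. For both genes intestine replicate 2 was low and colon replicate 2 high beside their partners: in the intestine Mest differed 6.74-fold and Dlk1 3.84-fold between replicates.

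The non-coding RNAs of the chromosome 12 domain were lowest in the intestine among the 3 tissues outside the forestomach. Meg3 stood at 14.5 and 21.9 FPKM in hindstomach, 4.10 and 3.45 in intestine, 17.6 and 38.5 in colon, and 8.30 and 0.956 in forestomach. Rian stood at 6.53 and 8.33 in hindstomach, 3.69 and 2.03 in intestine, 9.95 and 18.2 in colon, and 4.31 and 1.05 in forestomach. The 3 tissues did not overlap for Rian, with colon highest, whereas hindstomach and colon overlapped for Meg3. The Meg3 to Rian ratio was 0.911 in forestomach replicate 2 and 1.11 to 2.64 in the other libraries, a range of 2.89-fold. The ratio of Meg3 to the paternally expressed Dlk1 was 11.8 in forestomach replicate 1, 1.06 in replicate 2 and 0.355 to 1.17 in the other 6 libraries.

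The 2 forestomach libraries differed most for H19 and Igf2. On the log2(FPKM + 1) scale, replicate 2 exceeded replicate 1 by 8.55 for H19 and 7.34 for Igf2, ranks 2 and 8 from the top among 12894 genes. Plagl1 was higher by 3.64, Cdkn1c by 2.87 and Grb10 by 1.36. In the opposite direction Meg3 differed by -2.25 and Rian by -1.37. Peg3 (0.87), Dlk1 (0.16) and Mest (-0.05) stayed within 2-fold on this scale. In all, 5 of the 10 genes were at least 2-fold higher in replicate 2, against 17.2% of all genes, and 2 at least 2-fold lower, against 15.8%; as the gap was used in choosing the genes, nothing is read from these counts. The same library pair differed in other fetal and lineage genes: 16 cell cycle genes summed to 101 FPKM in replicate 1 and 314 in replicate 2, and 342 to 589 in the other 6 libraries. All 20 mesenchyme genes were lower in replicate 2, with a median difference of -3.53 on the log2 scale. The part of these differences in the values of the 10 genes was not tested.

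Forestomach replicate 1 lay below all 6 libraries of the other tissues for 8 of the 10 genes, all but Meg3 and Rian. Forestomach replicate 2 did so for 7, all but H19, Plagl1 and Peg3. Both libraries were below the other tissues for Igf2, Cdkn1c, Grb10, Mest and Dlk1. The mean of the 6 other libraries exceeded forestomach replicate 2 by 57.0-fold for Mest, 23.3-fold for Dlk1, 17.5-fold for Meg3, 4.59-fold for Cdkn1c, 1.90-fold for Igf2 and 1.64-fold for H19. Colon replicate 2 carries much of the first values: without it, a setting added after the values were seen, the means exceeded forestomach replicate 2 by 36.4-fold for Mest, 15.4-fold for Dlk1 and 12.9-fold for Meg3. The lowest of the 6 libraries exceeded it 6.16-fold for Mest and 3.33-fold for Dlk1. Against forestomach replicate 1 the 6-library mean was 674-fold higher for H19, 572-fold for Igf2, 52.7-fold for Mest (33.7-fold without colon replicate 2) and 30.0-fold for Dlk1 (19.9-fold without it). Mest and Dlk1 were thus below the other tissues in either forestomach library, whereas the size of the gap for H19 and Igf2 depended on which library is taken. The values against replicate 1 compare with a library whose tissue and stage the markers leave in doubt. In a limma fit of all 8 libraries, 5.59% of all genes were called between hindstomach and forestomach, 17.1% between intestine and forestomach and 11.6% between colon and forestomach. No count of members is given for these contrasts.

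**Figure D3:**
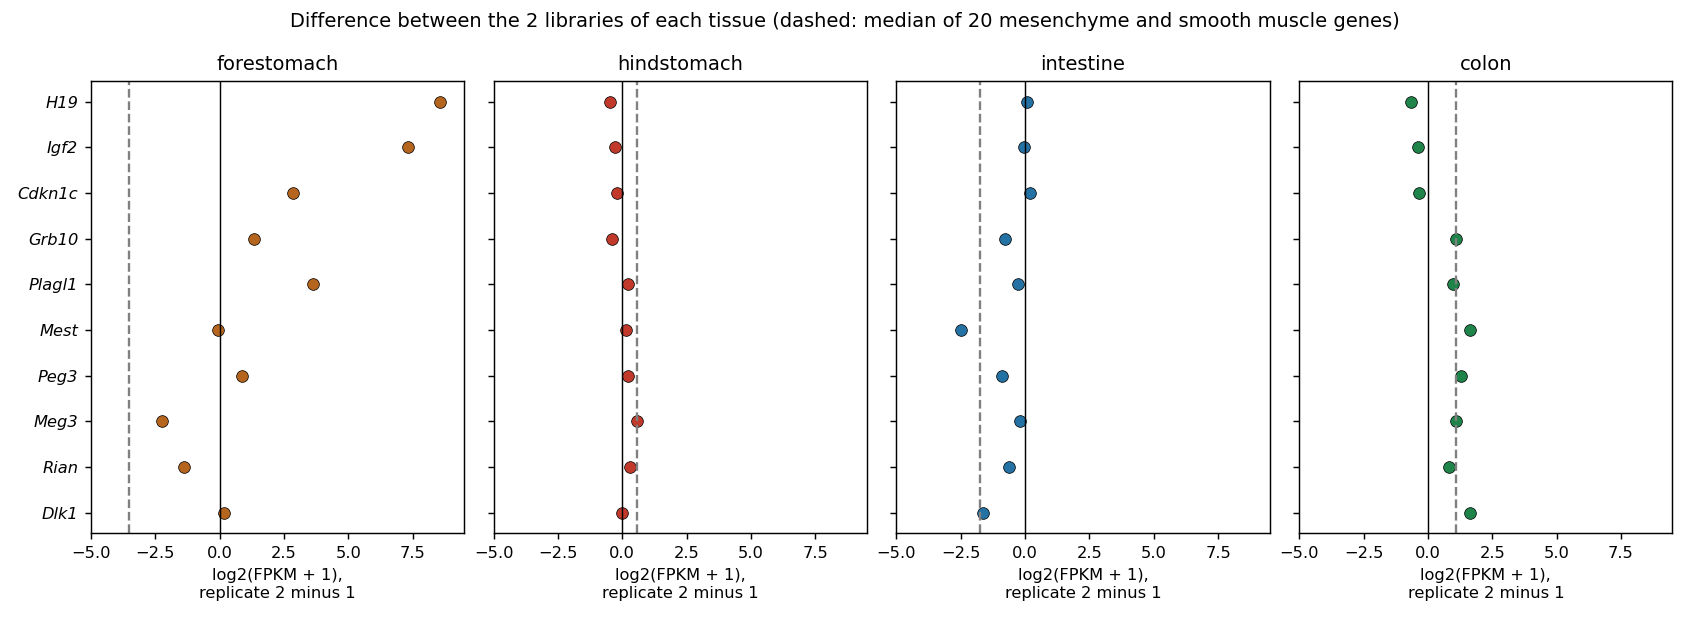
Difference between replicate 2 and replicate 1 in log2(FPKM + 1) for each gene in the 4 tissues; the solid line is 0 and the dashed line the median of the 20 listed mesenchyme genes. H19 and Igf2 reach 8.55 and 7.34 in the forestomach, while in intestine and colon Mest and Dlk1 lie on the same side of 0 as the dashed line.

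Intestine was compared with hindstomach in a limma fit of the 6 libraries outside the forestomach, with 12356 genes tested and differences on the log2(FPKM + 1) scale. Cdkn1c was higher in the intestine, and Plagl1, Meg3 and Rian were lower. These are 4 of the 10 genes, where 17.5% of all genes were called (7.51% higher and 10.0% lower). Cdkn1c rose by 1.45 ± 0.17 (SE; adjusted p = 0.00525), from 179 ± 16.9 to 493 ± 45.3 FPKM (SD, n = 2). Meg3 fell by 1.99 ± 0.39 (adjusted p = 0.0177), from 18.2 ± 5.23 to 3.77 ± 0.462 FPKM. Plagl1 fell by 1.18 ± 0.33 (adjusted p = 0.0430) and Rian fell by 1.15 ± 0.34 (adjusted p = 0.0491), both near the threshold.

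The other 6 genes did not pass. Igf2 differed by 0.67 ± 0.20 (adjusted p = 0.0507) and H19 by 0.75 ± 0.36 (adjusted p = 0.150), both with the intestinal libraries above those of hindstomach. Dlk1 differed by -1.48 ± 0.71 (adjusted p = 0.146), Mest by -1.25 ± 0.90 (adjusted p = 0.299) and Peg3 by -1.14 ± 0.49 (adjusted p = 0.119). Grb10 differed by -0.07 ± 0.43 (adjusted p = 0.904), with a 95% interval from -1.15 to 1.01, and its sign turned under both other scalings. The median over the 10 genes was -1.15, against -0.25 over all genes tested. The libraries of both tissues did not overlap for 3 genes higher and 5 lower in the intestine, but 78.6% of all genes did not overlap either (25.2% higher and 53.4% lower).

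Limits of this comparison come from its 2 libraries a group. Median-of-ratios scaling, which moved the median of all genes from -0.25 to -0.0013, left 2 of the 4 calls (Cdkn1c and Meg3) and raised the share of higher calls among all genes from 42.8% to 58.1% (57.2% with quantile normalization). Plagl1 and Rian were also lost with a pseudocount of 10 or no filter on low values, and all 4 calls were lost when all 8 libraries were fitted. With hindstomach replicate 2 left out no member was called, with hindstomach replicate 1 or intestine replicate 2 left out Cdkn1c alone, and with intestine replicate 1 left out Cdkn1c and Meg3.

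Colon was compared with intestine in the same fit. Meg3 was higher in the colon, by 2.51 ± 0.39 (adjusted p = 0.0387), at 28.1 ± 14.8 against 3.77 ± 0.462 FPKM (SD, n = 2), and was the single member called, where 2.54% of all genes were (2.50% higher and 0.0405% lower). Its neighbour Rian differed by 1.94 ± 0.34 and just missed the threshold (adjusted p = 0.0537). Mest differed by 2.33 ± 0.90 (adjusted p = 0.133) and Dlk1 by 2.19 ± 0.71 (adjusted p = 0.112). Peg3 (1.17 ± 0.49), Grb10 (1.03 ± 0.43) and Plagl1 (0.95 ± 0.33) had adjusted p-values of 0.118 to 0.148.

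H19, Igf2 and Cdkn1c had the opposite sign in this comparison. H19 differed by -0.86 ± 0.36 (adjusted p = 0.152). Quantile normalization turned this to 0.46, but it sets values by rank alone, and H19 ranked 1 and 2 in intestine and 1 in both colon libraries. Igf2 differed by -0.55 ± 0.20 (adjusted p = 0.124) and Cdkn1c by -0.65 ± 0.17 (adjusted p = 0.101). The libraries did not overlap for any of the 10 genes, 7 higher and 3 lower in the colon, and for 76.5% of all genes (57.0% higher and 19.5% lower). The median over the 10 genes was 1.10, against 0.22 over all genes tested, and the latter moved to -0.10 with median-of-ratios scaling.

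Single libraries decided this comparison. Without colon replicate 1, 7 members were called (H19 lower; Grb10, Plagl1, Peg3, Meg3, Rian and Dlk1 higher) among 2264 genes in all, and the lone colon library is then assumed to vary like the other tissues. Without colon replicate 2 no member was called and 4 genes were in all. Leaving out any of the other 4 libraries also ended the call of Meg3, with 61 to 172 genes called in all.

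Between colon and hindstomach none of the 10 genes was called by limma, where 7.67% of all genes were (4.53% higher and 3.14% lower in the colon), and 1 gene had an unadjusted p under 0.05. That gene was Cdkn1c, which was 0.80 ± 0.17 higher in the colon (adjusted p = 0.0440), short of the 2-fold limit, with a 95% interval from 0.37 to 1.24. Mest differed by 1.07 ± 0.90, Grb10 by 0.96 ± 0.43, Rian by 0.79 ± 0.34, Dlk1 by 0.71 ± 0.71 and Meg3 by 0.52 ± 0.39, with adjusted p-values of 0.209 to 0.571. H19 (-0.10 ± 0.36), Igf2 (0.12 ± 0.20), Plagl1 (-0.23 ± 0.33) and Peg3 (0.04 ± 0.49) were near 0, and all 4 changed sign in at least 1 alternative. The intervals are wide: that of Mest runs from -1.17 to 3.32 and that of H19 from -1.01 to 0.81. The libraries did not overlap for 4 genes, all higher in the colon, and for 54.1% of all genes (30.3% higher and 23.7% lower). The median over the 10 genes was 0.61, against 0.01 over all genes tested. The 3 comparisons share libraries, so their values for a gene are not independent.

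**Figure D4:**
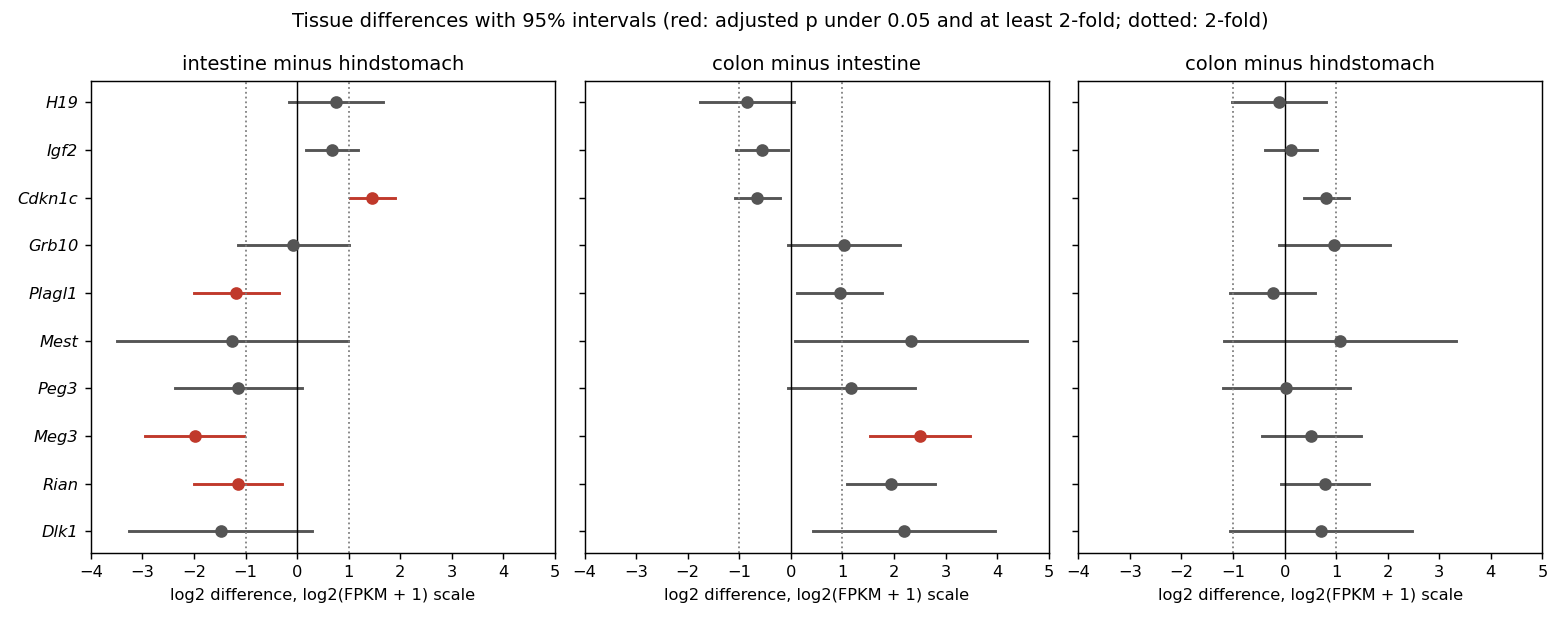
Log2 differences of the 10 genes in the 3 comparisons with 95% intervals from the limma fit, each over 2 libraries a tissue; red marks adjusted p under 0.05 with at least a 2-fold change and dotted lines mark 2-fold. Cdkn1c (1.45), Plagl1 (-1.18), Meg3 (-1.99) and Rian (-1.15) are red for intestine minus hindstomach, Meg3 (2.51) for colon minus intestine, and none for colon minus hindstomach.

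The members moved with other cell types' markers to different degrees. The 20 mesenchyme and smooth muscle genes, among them Vim, Col1a1, Col3a1 and Des, summed to 239 and 409 FPKM in hindstomach, 439 and 92.9 in intestine and 875 and 1937 in colon. None of the 20 was at 0 in these libraries except Twist1 in intestine replicate 2. Of 19 tested, 1 was called lower in intestine than in hindstomach (Barx1; median of the list -0.25), none differed by call between colon and intestine (17 at an unadjusted p under 0.05; median 2.23), and between colon and hindstomach Des was called higher and Barx1 lower (median 1.58). Over the 6 libraries, Pearson's r of log2(FPKM + 1) with the mean of that list was 0.95 for Mest, 0.91 for Grb10, Rian and Dlk1, 0.79 for Peg3, 0.77 for Meg3 and 0.62 for Plagl1. It was -0.74 for H19, -0.55 for Igf2 and -0.25 for Cdkn1c. These r describe 6 libraries in 3 tissues that differ in isolation and composition.

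Within tissues, 2 of the 10 genes were higher in intestine replicate 2 than in replicate 1, near the 32.5% of all genes that were. The other 8 were higher in replicate 1, as were all 20 mesenchyme genes, with a median of replicate 2 minus replicate 1 of -1.76 on the log2 scale. Mest and Dlk1 were the 2 members at least 2-fold higher there (2.79% of all genes). In the colon 7 of 10 were higher in replicate 2, close to the 66.7% of all genes, as were 19 of 20 mesenchyme genes. At least 2-fold higher there were 5 of the 10 genes and 12 of the 20 mesenchyme genes, against 4.94% of all genes. H19, Igf2 and Cdkn1c were lower in colon replicate 2. Endothelial genes (6) summed to 4.35 to 63.1 FPKM and enteric neuron and glia genes (8) to 9.45 to 80.5 over the 6 libraries, in both cases highest in colon replicate 2. The part of these other cells in the tissue differences was not tested.

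In the forestomach the mesenchyme list had its highest sum of all libraries in replicate 1, at 4661 FPKM, where Mest and Dlk1 were under 1 FPKM. Much of that sum came from the contractile genes Tagln (1338 FPKM), Acta2 (1327) and Actg2 (921). Vim was at 26.5 FPKM there, above hindstomach (14.0 and 15.6) but below colon (28.4 and 72.6). Col3a1 was at 58.0, likewise above hindstomach (31.0 and 43.7) but below colon (78.6 and 213). Col1a1, at 38.3, lay between the hindstomach values of 34.7 and 73.2. The part of mesenchyme in the values of forestomach replicate 1 was not tested. Meg3 and Rian were higher in this library than in its partner, as the mesenchyme genes were.

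The 10 gut epithelium markers did not share 1 pattern: between intestine and hindstomach 4 were called lower in intestine (Esrp1, Krt8, Krt18 and Krt19), none higher, and the median of the list was -0.56. Epcam, chosen from this list as a single marker, was at 427 and 374 FPKM in hindstomach, 560 and 564 in intestine and 557 and 511 in colon, and 83.2 and 146 in forestomach. It differed between intestine and hindstomach by 0.49 ± 0.15 (adjusted p = 0.0522). Its r over the 6 libraries was 0.94 with Cdkn1c, 0.76 with Igf2, 0.57 with H19, 0.19 with Grb10 and below 0 for the other 6 genes. The 10 genes were also split by name into H19, Igf2 and Cdkn1c and the other 7, which include Grb10. Among themselves r was 0.74 to 0.96 in the first group and 0.53 to 0.98 in the second. Between the groups it was -0.97 to -0.10. The split was made with values of these libraries known, so these r describe it and are no support for it. FPKM shares 1 total per library, so these coefficients are not independent of each other.

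**Figure D5:**
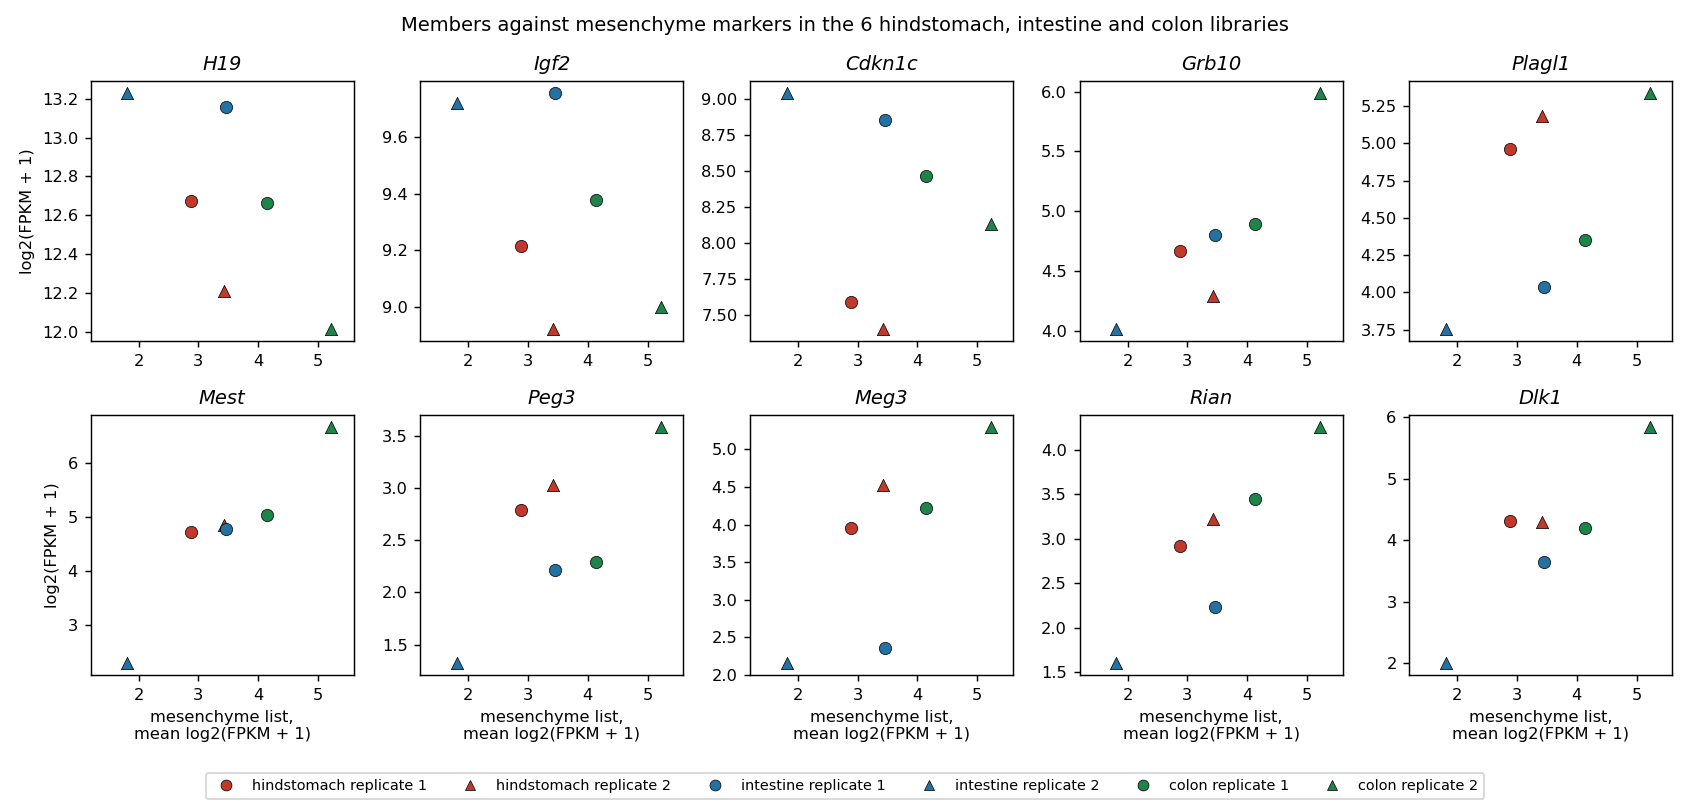
Each gene's log2(FPKM + 1) against the mean over the 20 listed mesenchyme genes in the 6 libraries of hindstomach, intestine and colon (circles replicate 1, triangles replicate 2; each panel has its own vertical range). Mest, Grb10, Rian and Dlk1 rise with the list (r = 0.95, 0.91, 0.91 and 0.91), and H19 runs against it (r = -0.74).

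The 12 pancreas and liver markers, from organs that adjoin the gut, summed to 4020 and 1193 FPKM in hindstomach, 2608 and 531 in intestine and 1608 and 611 in colon, higher in replicate 1 of each tissue. Much of these sums came from the pancreatic gene Ctrb1, at 2852 and 748 FPKM in hindstomach and 1041 and 354 in colon. In colon 3 of the 12 genes were higher in replicate 2. The liver genes Afp (100 and 126 FPKM) and Alb (5.91 and 6.49) were among them, but Ttr (39.8 and 27.5) was not. Igf2 was also higher in replicate 1 of these 3 tissues, and H19 in hindstomach and colon. Among blood markers, the globin genes Hbb-bs and Hbb-bt were at 0 in every library. Fetal liver and blood are sites of high Igf2 and H19, and their part was not tested.

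Genes whose pattern was most like a member's over all 8 libraries were taken from 2683 candidates by Pearson's r, given as a description. For H19 they were Spint1 (r = 0.981), a protease inhibitor of epithelium, Igf2bp3 (0.980), Nup107 (0.975), E2f8 (0.973) and Cdk4 (0.973). For Igf2 it was Igf2bp3 (0.989), which encodes an RNA-binding protein named for binding Igf2 transcripts. Igf2bp3 was at 0.0151 FPKM in forestomach replicate 1, 15.0 in replicate 2, 30.0 and 24.5 in hindstomach, 37.9 and 34.4 in intestine and 34.8 and 38.0 in colon. Without forestomach replicate 1, a check added after the values were seen, r over the other 7 libraries fell to 0.64 for Spint1, 0.26 for Nup107, 0.67 for Cdk4 and, with Igf2bp3, 0.56 for H19 and 0.81 for Igf2, so the likeness rests on that library, whereas E2f8 stayed at 0.94 with H19.

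For the other members, whose r stayed between 0.95 and 0.99 without forestomach replicate 1, the closest genes were Arid3a for Cdkn1c (r = 0.996), Sept11 for Grb10 (0.995), Sqle for Plagl1 (0.984) and Maged2 for Peg3 (0.970). Mdk, which encodes the growth factor midkine, was closest to both Mest (0.962) and Dlk1 (0.982). It stood at 51.1 and 29.8 FPKM in hindstomach, 22.0 and 6.55 in intestine, 25.2 and 87.8 in colon, and 4.19 and 4.29 in forestomach. Creb3l1, a transcription factor of the secretory pathway, was closest to Meg3 (0.976), and Kdelr3, a receptor that returns proteins to the endoplasmic reticulum, to Rian (0.980).

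The genes that receive the Igf2 signal were described from a list of 27 IGF signalling genes, 25 of them tested. In intestine against hindstomach 2 were called higher and 6 lower, with a median of -0.17. Igf2r, itself maternally expressed in mice and known to take up and degrade Igf2, was at 27.2 and 37.0 FPKM in hindstomach, 64.0 and 69.5 in intestine, 63.2 and 56.6 in colon, and 7.88 and 16.4 in forestomach. It was higher in intestine by 1.05 ± 0.17 (adjusted p = 0.0113). Igf1r, the receptor that passes on the growth signal, was lower in intestine by the fitted difference of -1.56 ± 0.33 (adjusted p = 0.0210), at 4.99 and 7.16 FPKM in hindstomach and 1.52 and 1.22 in intestine. The insulin receptor Insr differed by 0.25 ± 0.19 (adjusted p = 0.312). Igf2 exceeded Igf2r 9.04-fold to 21.9-fold in FPKM in 7 libraries, whereas in forestomach replicate 1 the ratio was 0.146.

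Of the 7 IGF binding proteins, secreted carriers of Igf1 and Igf2, 3 were called lower in intestine than in hindstomach. Igfbp5 was at 99.3 and 105 FPKM in hindstomach, 6.03 and 2.33 in intestine and 17.0 and 51.7 in colon, a fitted difference of -4.41 ± 0.58 between intestine and hindstomach (adjusted p = 0.00632). Igfbp2 differed by -3.60 ± 0.66 (adjusted p = 0.0154) and Igfbp1 by -2.64 ± 0.17 (adjusted p = 0.00170). Igfbp3, Igfbp4, Igfbp6 and Igfbp7 did not pass, with differences of -1.33 to -0.90. In colon against intestine none of the 25 genes was called by limma, and 9 had an unadjusted p under 0.05. In colon against hindstomach none was higher and 2 were lower, Grb14 (-1.22 ± 0.15, adjusted p = 0.00937) and Igfbp1 (-2.78 ± 0.17, adjusted p = 0.00159).

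Other genes known as imprinted were taken from a list of 57, of which 56 were in the table and 37 were tested. Whether they are imprinted in these tissues and at this stage was not measured. In intestine against hindstomach 1 was called higher (Igf2r) and 7 lower, with a median of -0.52. The lower ones included the potassium channel gene Kcnq1 (-1.50 ± 0.29), Inpp5f (-1.48 ± 0.27), Ppp1r9a (-1.27 ± 0.26), Peg12 (-1.16 ± 0.35), Ddc (-1.12 ± 0.14) and Osbpl5 (-1.05 ± 0.24). In colon against intestine Gatm was called higher (1.93 ± 0.23, adjusted p = 0.0186) and none lower, with a median of 0.49. In colon against hindstomach Gatm (1.65 ± 0.23) and Cobl (1.17 ± 0.15) were higher and Kcnq1 (-2.18 ± 0.29) lower, with a median of -0.04. Kcnq1 and Cdkn1c lie in the same imprinted domain and had opposite signs in both comparisons with the hindstomach.

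Other CDK inhibitors, and Notch genes with Dlk relatives, were tested as well. Of the CDK inhibitors other than Cdkn1c, 5 were tested and none was called by limma in any of the 3 comparisons. At an unadjusted p under 0.05 there were 3 in intestine against hindstomach, 4 in colon against intestine and 2 in colon against hindstomach. Cdkn1a, which encodes p21, was at 48.1 and 69.5 FPKM in hindstomach, 30.0 and 28.8 in intestine, 35.0 and 43.0 in colon, and 98.3 and 192 in forestomach, so its order of tissues differed from that of Cdkn1c. Of 8 tested Notch ligands, receptors and Dlk relatives, Dll1 alone was called, higher in intestine than in hindstomach by 1.77 ± 0.18 (adjusted p = 0.00350) and in colon than in hindstomach by 1.34 ± 0.18 (adjusted p = 0.0111). Dlk2, the closest relative of Dlk1, was at 14.9 FPKM in forestomach replicate 2, 1.40 in replicate 1 and at most 0.285 in the other 6 libraries, where Dlk1 stood at 3.01 to 56.6.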

How the data were processed

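Gene values are the FPKM deposited by the authors in 1 table of 23393 symbols. STAR 2.4.2a and GRCm38 (mm10) are named per the submitters' processing notes; not given in the sources used here are the FPKM program, annotation and strand setting. Another 4 columns match no sample listed and were not used. Values were taken as log2(FPKM + 1), keeping genes that reached 1 FPKM in 2 or more libraries. limma 3.58.1 (R 4.3.3) was fitted to the 6 libraries outside the forestomach (1 mean per tissue, trend), with Benjamini-Hochberg adjustment over all 12356 genes; calls needed adjusted p under 0.05 and 2-fold. On simulated data the fit recovered 16% to 30% of 2-fold and 82% to 90% of 4-fold changes over the 3 comparisons, 50 genes of each size. Simulated 2-fold changes had a median fitted log2 difference of 0.988 to 1.01, at the 2-fold limit itself. That limit alone therefore leaves many of them uncalled. The changed genes were drawn from those with a mean above 10 FPKM on the log2 scale. Recovery at lower levels, such as those of Peg3 and Rian, was not simulated. The members and gene lists were chosen with earlier results of these data known. Named genes were all 10 members, per list the called genes with the largest difference, up to 4 per comparison, the main IGF receptors and Igfbp genes, and the genes most like each member; all other named genes were chosen after their values were seen. Of the symbols, 23257 matched GENCODE M21.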

Additional observations from a re-analysis of the deposited data

How the results depend on the processing

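Each comparison was refitted under 16 alternatives. For intestine minus hindstomach, 4 members and 2168 genes were called; with pseudocount 10, no filter on low values, median-of-ratios scaling, quantile normalization or a replicate block 2 members were, and with all 8 libraries fitted 0. All genes called fell to 752 with pseudocount 10 and 648 with all 8 libraries. Leaving out 1 library gave 0 to 5 members and 531 to 2324 genes. For colon minus intestine, 1 member and 314 genes were called; a filter of 5 FPKM gave 2 members, and pseudocount 10 gave 0 members and 89 genes, no filter 0 and 138, quantile normalization 0 and 195, the replicate block 0 and 115, all 8 libraries 0 and 49, and the 2 tissues alone 0 and 93. Leaving out 1 library gave 0 to 7 members and 4 to 2264 genes. For colon minus hindstomach no member was called in any of the 16; all genes called were 948, 287 with pseudocount 10, 194 with all 8 libraries and 196 to 1201 with 1 library left out. The cause of these changes was not tested.

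Signs turned for these differences, none of them called. Grb10, intestine minus hindstomach, was 0.22 with median-of-ratios scaling and 0.034 under quantile normalization, and ran from -0.47 to 0.32 with 1 library left out. H19, colon minus intestine, was 0.46 with quantile normalization. That method sets values by rank alone, and H19 ranked 1 or 2 in every library outside the forestomach. For colon minus hindstomach, median-of-ratios scaling gave -0.029 for Peg3, and quantile normalization -0.013 for Peg3 and 0.92 for H19. With 1 library left out this comparison ran from -0.43 to 0.22 for H19, -0.068 to 0.31 for Igf2, -0.72 to 0.27 for Plagl1, -0.61 to 0.68 for Peg3, -0.022 to 1.06 for Meg3 and -0.12 to 1.53 for Dlk1. Mest between the forestomach libraries was 0.15 with totals made equal.

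Deviations of same-numbered libraries had an r of 0.28 between hindstomach and intestine and -0.02 between hindstomach and colon. Between intestine and colon r was -0.58, so these libraries deviated in opposite directions by number. The sign was not shared, and the numbers were not taken as pairs. With the replicate block, colon minus hindstomach had 0 members and 699 genes. The data have 2 libraries a tissue, no counts and unknown depth. Simulated 2-fold changes were mostly not called, in part because a call needed a fitted 2-fold difference. What part the number of libraries had in this was not tested. Low members such as Peg3 and Rian are compressed by the pseudocount.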
